A study of Mus musculus with 14 samples.

Results

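Bnip3, Bnip3l, Ddit4, Higd1a, Ndrg1, Ankrd37, Mxi1 and Stc2, 8 genes that hypoxia-inducible factors (HIF) are known to switch on, were followed through a time course of low oxygen. Every ATAC-seq peak from 20 kb before to 20 kb after the body of each gene was taken (mm9), so the members were set by position and not by a measured value. The 8 genes are 8 of 22238 protein-coding genes, and their windows held 56 of the 108806 regions made by merging peaks of all lists that shared a base. The samples were bulk ATAC-seq libraries of 4T1, a mouse mammary tumor cell line, in which transposase inserts into open DNA of fixed cells. Cells were control cells, called normoxia here, or were kept at 1% oxygen for 6, 12, 24, 36, 48 or 72 h, with 2 samples per group and 14 in all. The sample labels give no oxygen level for the controls, and their treatment text, shared by all samples, describes 1% oxygen. For a protein measurement on the same time course the study describes control cells at a higher oxygen level. All groups were the same line without a transgene named in the labels. The authors merged both replicates of a group before calling peaks, which left 7 lists, 1 per group. The values that follow thus carry no error between replicates, and conditions could not be tested against each other.

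HIF is a pair of proteins whose alpha subunit is destroyed when oxygen is present; in low oxygen it persists and binds the core letters ACGTG or GCGTG at its targets. BNIP3 and BNIP3L (also NIX) sit on the outer mitochondrial membrane and recruit the autophagy machinery, which removes mitochondria (mitophagy). DDIT4 (REDD1) restrains the growth kinase complex mTORC1 through the TSC proteins. HIGD1A is a protein of the inner mitochondrial membrane, MXI1 binds MAX and opposes MYC, STC2 is a secreted glycoprotein, NDRG1 is a stress-responsive cytoplasmic protein, and ANKRD37 is a small ankyrin-repeat protein.

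The lists held from 49006 peaks at 6 h to 81732 at 12 h, with 60070 in normoxia. Read totals were not in the files used here, but the number of reads at each summit could be recovered from the peak statistics. The background expected genome-wide at a summit was 0.926 reads for normoxia and from 1.85 to 3.25 for hypoxia, so normoxia was the shallowest list by this measure, and its weakest peaks had 5 summit reads, against 7 to 11 at the hypoxia times. Of 9 epithelial marker genes, 8 had a promoter peak in every list and Cldn7 in none. The immune markers Ptprc, Cd3e and Itgam had no promoter peak in any list, and Csf1r had one in all 7. The endothelial markers Cdh5 and Tek had none and Pecam1 had one in 4 hypoxia lists; of the fibroblast markers Dcn had none, Pdgfra had one in all 7 lists and Col1a1 in 5 hypoxia lists. The part of these markers in the results below was not tested.

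All 8 genes were already open at a promoter in normoxia and kept a peak within 1 kb of an annotated start in all 7 lists, as did 47.1% of all protein-coding genes. The HIF core is common at such sites: within 100 bp of the strongest summit it occurred in 47.6% of the 15757 promoter regions of the genome and in 10 of the 15 promoter regions in the windows (66.7%). Among the genes' own promoter regions open throughout, 8 of 9 held it, Stc2 being the exception. The share over all promoter regions open throughout is not given here, so this count has no like background beside it. The sequences below, from the mm9 genome and written 5′ to 3′ on the strand of each gene, show where these letters lay at the promoters of the mitophagy pair, of Ddit4, of Ankrd37 and of the second Mxi1 start. Capitals mark the HIF core on either strand (reversed, it reads CACGT or CACGC), each stretch ends 100 bp from the summit or where an exon begins, and a match is a description of letters, not a measured binding site.
Bnip3 promoter, chr7:146101368-146101568, minus strand: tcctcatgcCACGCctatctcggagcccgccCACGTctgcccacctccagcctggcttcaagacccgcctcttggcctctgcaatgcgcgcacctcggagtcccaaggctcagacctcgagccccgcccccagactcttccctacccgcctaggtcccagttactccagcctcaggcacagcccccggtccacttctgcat
Bnip3l promoter, chr14:67627739-67627939, minus strand: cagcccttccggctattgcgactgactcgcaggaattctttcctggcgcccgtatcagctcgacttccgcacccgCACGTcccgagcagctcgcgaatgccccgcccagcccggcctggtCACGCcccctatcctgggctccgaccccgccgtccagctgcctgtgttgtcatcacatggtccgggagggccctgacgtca
Ddit4 promoter, chr10:59414604-59414804, minus strand: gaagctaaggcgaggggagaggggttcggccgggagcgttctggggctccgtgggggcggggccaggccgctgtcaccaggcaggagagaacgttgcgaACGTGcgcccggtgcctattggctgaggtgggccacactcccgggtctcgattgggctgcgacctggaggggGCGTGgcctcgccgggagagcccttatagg
Ankrd37 promoter, chr8:47085278-47085478, minus strand: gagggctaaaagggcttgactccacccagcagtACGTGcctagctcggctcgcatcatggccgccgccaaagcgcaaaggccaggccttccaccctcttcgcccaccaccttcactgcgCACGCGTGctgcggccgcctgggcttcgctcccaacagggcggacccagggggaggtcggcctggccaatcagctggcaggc
Mxi1 second start, chr19:53403798-53403902, plus strand: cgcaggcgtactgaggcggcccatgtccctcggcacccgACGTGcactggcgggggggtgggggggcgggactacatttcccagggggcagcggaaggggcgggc
Bnip3 and Bnip3l each held 1 ACGTG and 1 GCGTG, both on the strand opposite to transcription, 333 and 355 bp upstream of the nearest Bnip3 start and 148 and 103 bp upstream of that of Bnip3l. In Ddit4 the ACGTG centred 1 bp from the summit, 185 bp upstream of the start, and a GCGTG lay at 113 bp, both on the strand of the gene. Ankrd37 held 3 cores, of which 2 overlapped as GCGTG on opposite strands 133 and 136 bp upstream of its start. The first Mxi1 start held its single GCGTG 48 bp inside the first exon, which is not printed. Higd1a held 2 overlapping GCGTG 136 and 140 bp inside its first exon, and Ndrg1 1 GCGTG 10 bp upstream of a start.

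The promoter values are given as fold enrichment, the authors' ratio of reads at a summit to local background in the same list. Because lists differ in depth, each hypoxia-to-normoxia ratio was taken on the log2 scale and the median of regions of like strength over the whole genome was subtracted; a corrected ratio past 1.5-fold was called. Positions in parentheses are gene bodies in mm9, and all 8 genes but Mxi1 lie on the minus strand. Counting error was added from the recovered reads as a 95% exact interval, which covers counting only, not the spread between cultures.

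**Figure D1:**
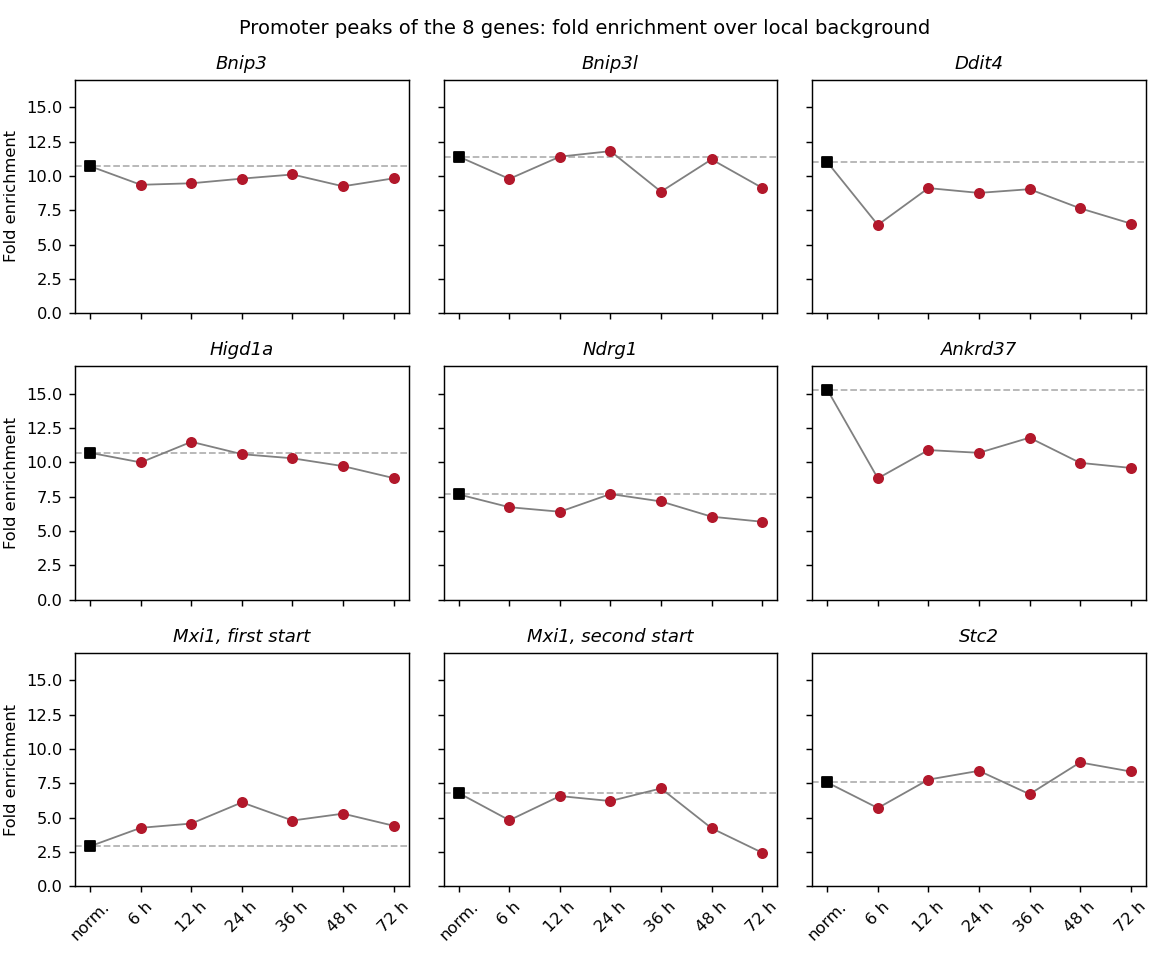
Fold enrichment (vertical axis, ratio to local background) of the promoter peaks of the 8 genes in normoxia (black squares, dashed line) and after 6 to 72 h at 1% oxygen (red circles), with 1 value per pooled list and no error bars. Ankrd37 was highest in normoxia at 15.3, the first Mxi1 start lay above its normoxia value of 2.92 at all 6 times, and the second Mxi1 start ended at 2.45.

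The promoters of the mitophagy receptors stayed close to their normoxia values. For Bnip3 (ENSMUSG00000078566, chromosome 7, 146082519 to 146101202, summit 266 bp upstream of the 5′ end of the gene) the fold enrichment was 10.7 in normoxia and 9.35, 9.46, 9.80, 10.1, 9.24 and 9.82 from 6 to 72 h. Its corrected log2 ratio stayed between -0.25 at 12 h and 0.20 at 6 h, and its summit held 93 reads in normoxia and 99 to 160 in hypoxia. Bnip3l (ENSMUSG00000022051, chromosome 14, 67604076 to 67627714, summit 125 bp upstream) stood at 11.4 in normoxia and at 9.78, 11.4, 11.8, 8.85, 11.2 and 9.13, with corrected log2 ratios from -0.22 at 36 h to 0.18 at 6 h. By summit reads all 6 counting intervals of either gene spanned 0, for example -0.10 to 0.70 for Bnip3 and -0.79 to 0.28 for Bnip3l at 72 h.

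Higd1a and Ndrg1 likewise stayed within 1.5-fold at every time. The Higd1a promoter (ENSMUSG00000038412, chromosome 9, 121757678 to 121767118, summit 100 bp downstream of the start, in an untranslated part of an exon) had a fold enrichment of 10.7 in normoxia and 10, 11.5, 10.6, 10.3, 9.73 and 8.86 in hypoxia. The Ndrg1 promoter region (ENSMUSG00000005125, chromosome 15, 66760883 to 66801202) was 1853 bp wide as merged over the lists. Only its normoxia peak was broad, beginning at 66799983, where the hypoxia peaks began at 66800934 to 66801008. Its fold enrichment went from 7.67 in normoxia to 6.74, 6.41, 7.70, 7.16, 6.05 and 5.68. The region carried the most summit reads of the 8 genes in normoxia, 135, and its reads-based log2 ratio at 72 h, -0.48 with a counting interval of -0.86 to -0.11, lay below 0 while the ratio by fold enrichment was -0.19.

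Ddit4 and Ankrd37 had lower fold enrichment at every hypoxia time than in normoxia, by less than 1.5-fold after correction. Ddit4 (ENSMUSG00000020108, chromosome 10, 59412423 to 59414518, summit 186 bp upstream) went from 11 to 6.43, 9.11, 8.76, 9.03, 7.64 and 6.53, with corrected log2 ratios of -0.14 to -0.49. Ankrd37 (ENSMUSG00000050914, chromosome 8, 47082256 to 47085221, summit 157 bp upstream) went from 15.3 to 8.84, 10.9, 10.7, 11.8, 9.97 and 9.60, with corrected log2 ratios of -0.24 to -0.55. The Ankrd37 region also covers the start of Lrp2bp, transcribed the other way from 564 bp away, so its signal cannot be assigned to either gene alone. In normoxia it ranked first of the 8 and above 96.8% of promoters with a peak, and in hypoxia above 66.1% to 86.4%. By reads neither gene was lower throughout: the Ankrd37 summit held 90 reads in normoxia and 77 to 128 in hypoxia, and its reads-based log2 ratios ran from -0.15 to 0.16. The local background at its summit was 4.94 reads in normoxia and 7.82 to 11.9 in hypoxia, not corrected for depth. As a multiple of the genome-wide background of the same list it was 5.33 in normoxia. In hypoxia that multiple was 2.40 to 5.51, below the normoxia value except at 24 h. The part of the local background in the result was not tested. For Ddit4 the reads-based log2 ratios ran from -0.28 to 0.13, with every counting interval spanning 0.

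The Stc2 promoter had its highest ratios to normoxia at the last 2 times. Its fold enrichment (ENSMUSG00000020303, chromosome 11, 31257307 to 31270074, summit 48 bp upstream) was 7.56 in normoxia and 5.70, 7.77, 8.41, 6.71, 9.02 and 8.36 in hypoxia, and the corrected log2 ratio reached 0.26 at 48 h and 0.38 at 72 h, under the 1.5-fold level. By summit reads the ratio was 0.71 at 48 h (counting interval 0.03 to 1.43) and 0.89 at 72 h (0.20 to 1.63), from 25 reads in normoxia to 69 and 60.

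Mxi1 (ENSMUSG00000025025, chromosome 19, 53384996 to 53450300) was the exception among the promoters, and its first and second annotated starts differed from normoxia in opposite directions at 72 h. The region at its first start (53384719 to 53385332, summit 48 bp upstream) had a fold enrichment of 2.92 in normoxia, above only 0.884% of normoxia peaks, and 4.26, 4.57, 6.11, 4.79, 5.29 and 4.41 from 6 to 72 h. All 6 hypoxia values lay above the normoxia value, with corrected log2 ratios of 0.70, 0.74, 1.17, 0.86, 0.92 and 0.69, and it was the only window region called stronger at 4 or more times. That is 1 of the 24 window regions in all 7 lists, 4.17%, where the share over all such regions was 3.43%. The summit held 26 reads in normoxia and 49, 73, 73, 52, 82 and 54 in hypoxia, and the reads-based log2 ratios of 0.56 to 0.93 had counting intervals above 0 at 24 h (0.27 to 1.64) and 48 h (0.26 to 1.61) and spanning 0 at the other times.

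The region at the second start, 53403608 to 53404292, which the rule for named promoters took for its higher normoxia value, ran the other way at the end of the course. Its fold enrichment was 6.79 in normoxia, 4.81, 6.57, 6.21 and 7.13 up to 36 h, and then 4.23 at 48 h and 2.45 at 72 h. The corrected log2 ratio, within 0.22 of 0 up to 36 h, was -0.72 at 48 h and -1.31 at 72 h. By summit reads it was 0.65 at 36 h, with an interval of 0.02 to 1.31, -0.14 at 48 h, with an interval of -0.81 to 0.55, and -0.89 at 72 h, with an interval of -1.73 to -0.07, so that both measures put the 72 h value below normoxia. At 48 and 72 h a further peak appeared 19856 bp from the 5′ end of the gene, beside the third annotated start, with 28 and 21 summit reads. An intronic Mxi1 site 15276 bp into the gene was open throughout, at 6.13 in normoxia and 6.36 to 8.46 in hypoxia. It was under 1.5-fold by fold enrichment at all times and past it by summit reads at 5, the reads-based log2 ratios being 0.56 to 0.86.

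**Figure D2:**
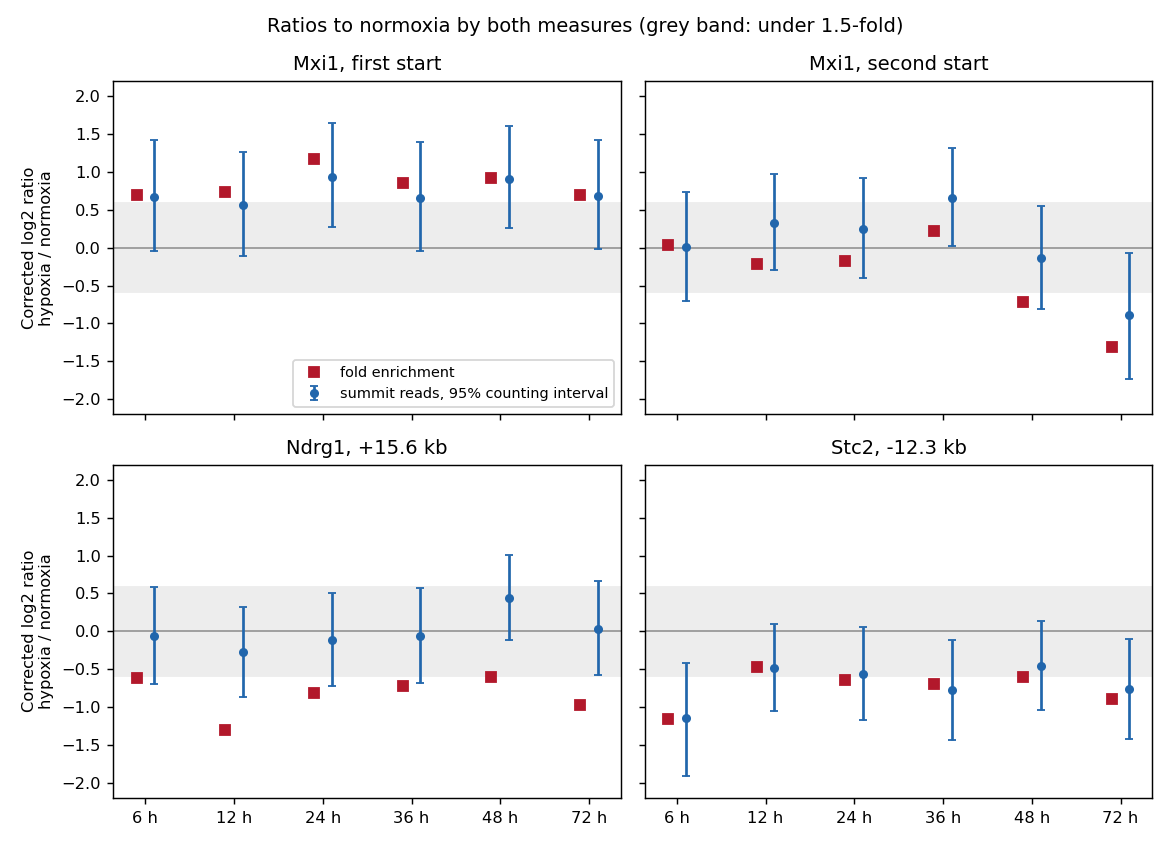
Corrected log2 ratio of hypoxia to normoxia (vertical axis) at 6 to 72 h for both Mxi1 starts, the Ndrg1 intronic site and the site upstream of Stc2, from fold enrichment (red squares) and from summit reads with 95% counting intervals (blue circles); the grey band is under 1.5-fold. The first Mxi1 start lies above 0 and the Stc2 site below 0 by both measures at every time, whereas the Ndrg1 site is below the band by fold enrichment and within it by reads.

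A larger share of regions had a peak throughout in the windows than over the genome. A peak was present in all 7 lists in 24 regions (42.9%, against 33.2% of all regions), and 13 regions were in 1 list alone (23.2%, against 26.6%). Windows set around genes are richer in promoters: 15 of the 56 regions were promoter regions, against 15757 of all 108806. The part of this mix in the larger share was not tested. Mxi1 had 13 regions in its window, Ndrg1 11, Bnip3 8, Bnip3l and Ddit4 6 each, Higd1a 5, Ankrd37 4 and Stc2 3, where the median protein-coding gene had 4 and the quartiles were 2 and 7. The windows differ in length, from 42.1 kb for Ddit4 to 105 kb for Mxi1. Neighboring genes lie inside them, among them Ppp2r2d beside Bnip3, Ppp2r2a beside Bnip3l and Smndc1 beside Mxi1, so that a site in a window is not thereby a site of the named gene. Higd1a was the gene with the fewest shared sites: only its promoter region was in all 7 lists, and its 3 regions absent in normoxia had 8 to 15 summit reads.

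**Figure D3:**
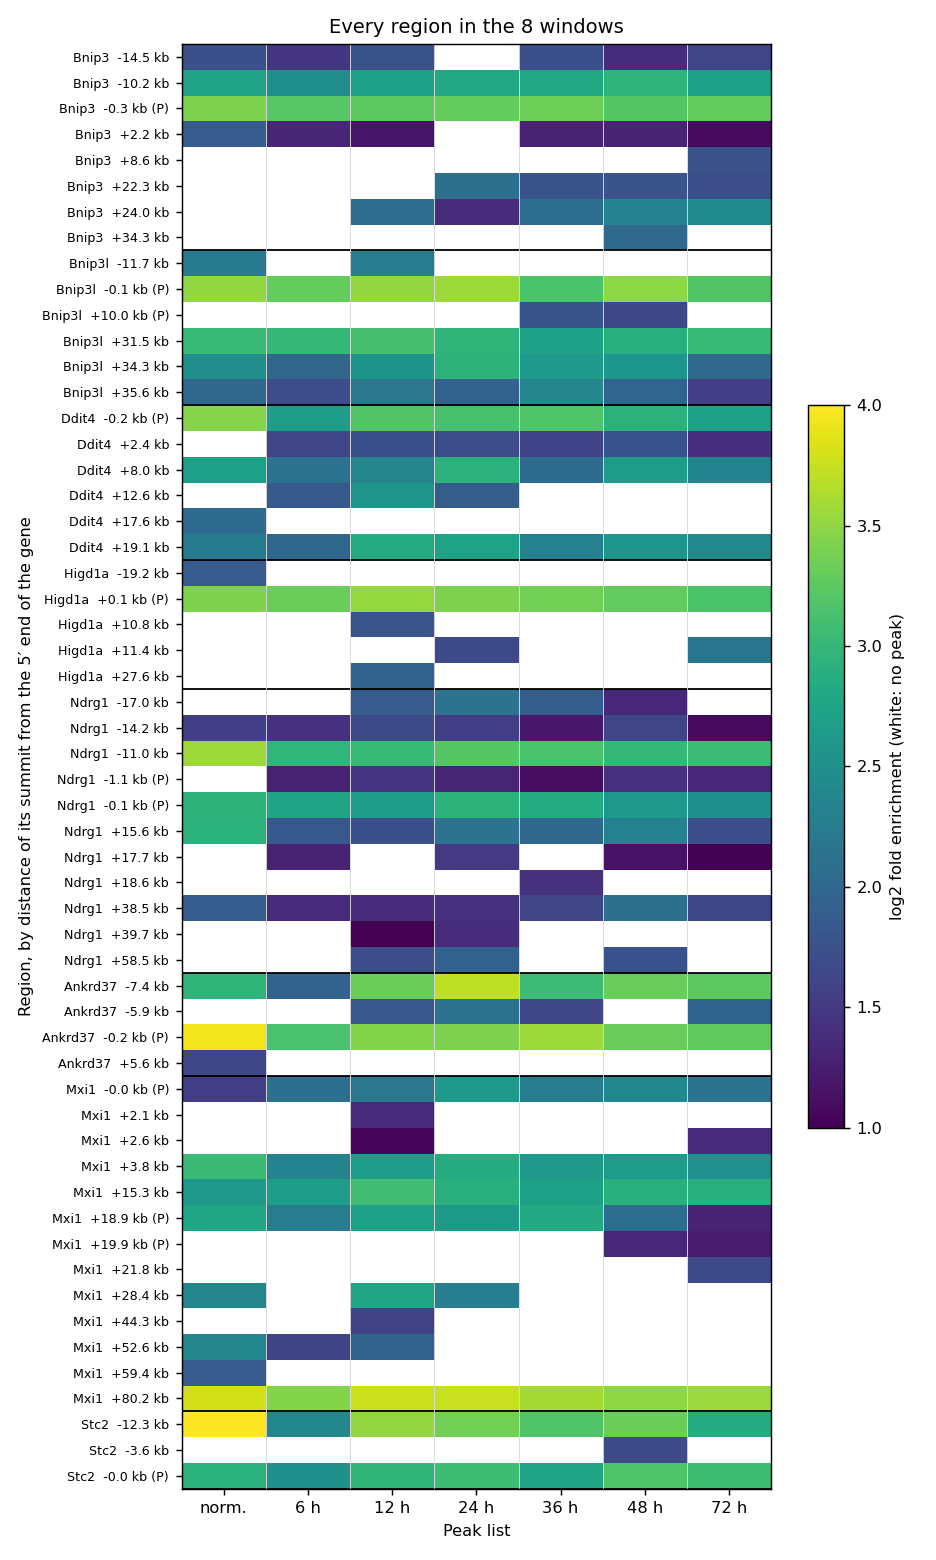
Log2 fold enrichment (color) of all 56 regions (rows, by gene and by distance of the summit from the 5′ end of the gene in kb; P marks a promoter of that gene) in the 7 lists (columns); white means that the list had no peak. The 24 rows filled in every column include a promoter of each gene, and the rows without a normoxia peak are 23.

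Without a normoxia peak were 23 of the 56 regions (41.1%, against 46.8% of all regions). The 6 h list had 4 such regions of 31 (12.9%, against 13.7% of all regions of that list), the 12 h list 13 of 42 (31.0%, against 34.3%) and the 24 h list 11 of 36 (30.6%, against 28.5%). The later lists had 8 of 34 (23.5%, against 23.7%), 11 of 37 (29.7%, against 30.3%) and again 11 of 37 (29.7%, against 27.6%). New regions were thus about as frequent in the windows as over the genome. In the other direction, 33 regions had a normoxia peak, of which the 6 h list lacked 6 (18.2%, against 30.0% of all normoxia regions), the 12 h list 4 (12.1%, against 8.99%) and the 24 h list 8 (24.2%, against 13.9%). The 36, 48 and 72 h lists lacked 7 each (21.2%), against 20.3%, 13.0% and 22.7%.

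Of the regions without a normoxia peak 7 had one in at least 4 hypoxia lists (12.5% of the 56, against 8.60% of all regions). Of these 7, 2 had a peak in all 6 hypoxia lists (2 of the 56, against 1629 of all 108806 regions). The highest fold enrichment of the 7 at 72 h was found 3′ of Bnip3. A site between genes, 5318 bp past the 3′ end of Bnip3 (chromosome 7, 146076960 to 146077585), had 26, 16, 22, 41 and 51 summit reads at 12, 24, 36, 48 and 72 h, with fold enrichments of 4.21, 2.61, 4.24, 5.06 and 5.51, and no peak in normoxia or at 6 h. The 72 h summit was above 54.0% of the peaks of its list and the 24 h summit above 0.703%. Beside it, 3654 bp past the gene, a second site had 27, 18, 28 and 30 summit reads at 24, 36, 48 and 72 h.

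At Ddit4 a site at the 3′ end of the gene (chromosome 10, 59411786 to 59412469), its summit 267 bp beyond the last exon, had a peak in each hypoxia list but none in normoxia. It had 28, 38, 28, 29, 48 and 32 summit reads and fold enrichments of 3.10, 3.31, 3.27, 3.04, 3.37 and 2.65, each above no more than 12.1% of the peaks of its list. Ndrg1 had the other region present at all 6 times, 1137 bp upstream of its 5′ end and beside the promoter region, with 42, 72, 50, 40, 66 and 47 summit reads and fold enrichments of only 2.16 to 2.78. Its local background, 16.5 to 25.3 reads, was close to that of the promoter itself. The remaining 3 were an intronic Ndrg1 site 17673 bp into the gene (29 to 37 reads, absent also at 12 and 36 h), a site 17003 bp upstream of Ndrg1 (20 to 28 reads, 12 to 48 h) and a site 5949 bp upstream of Ankrd37 in an intron of Lrp2bp (11 to 19 reads).

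The sequences around the new sites 3′ of Bnip3 and Ddit4 follow. Capitals mark the letters of AP-1 (TGANTCA), known to bind many open distal sites, and of NFY (CCAAT, reversed ATTGG). Neither site holds a HIF core within 100 bp of the summit, and of the 7 regions only the one 1137 bp upstream of Ndrg1 does.
Bnip3 3′ site, chr7:146077101-146077301, minus strand: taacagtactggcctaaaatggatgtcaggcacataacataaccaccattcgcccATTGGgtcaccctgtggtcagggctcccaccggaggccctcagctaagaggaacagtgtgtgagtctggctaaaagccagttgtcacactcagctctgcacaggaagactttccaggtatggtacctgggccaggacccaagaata
Ddit4 3′ site, chr10:59412056-59412256, minus strand: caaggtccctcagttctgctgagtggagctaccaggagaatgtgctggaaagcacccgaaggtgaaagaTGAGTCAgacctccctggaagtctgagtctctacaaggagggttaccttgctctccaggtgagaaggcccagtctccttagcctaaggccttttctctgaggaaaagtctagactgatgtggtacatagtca
Outside promoters the HIF core occurred in 10 of 41 window regions (24.4%) and in 19.5% of all such regions, and TGANTCA in 16 of 41 (39.0%) and in 41.6%. The whole set of 56 held the HIF core in 20 (35.7%, against 23.6% of all regions), CCAAT in 17 (30.4%, against 25.1%), the C/EBP letters TTGCNNAA in 5 (8.93%, against 8.73%), the SP letters GGGCGG in 12 (21.4%, against 11.3%) and the TEAD letters GGAATG in 2 (3.57%, against 16.5%). Promoter regions were 15 of these 56, against 15757 of all 108806. Split in the same way, GGGCGG occurred in 9 of the 15 window promoter regions and in 50.2% of all promoter regions. Away from promoters it occurred in 3 of 41 window regions (7.32%) and in 4.72% of all such regions. GGAATG occurred in 0 of the 15 window promoter regions and in 9.45% of all promoter regions. Away from promoters GGAATG was in 2 of 41 window regions (4.88%) and in 17.7% of all such regions. The part of the promoter mix in the shares of the whole set was not tested. Both strands were searched, over the 100 bp on each side of a region's strongest summit.

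The normoxia reads at the 7 sites are unknown, since a list gives values only where it has a peak. As a guide, the reads of each site were scaled by a median ratio of normoxia to hypoxia reads. The median was taken over the 1000 regions open in both lists with the most similar hypoxia reads. This gave 12, 11, 15, 21.5 and 38 reads from 12 to 72 h for the Bnip3 site at 5318 bp. It gave 17 to 26 for the Ddit4 site over the 6 times and 8 to 13 for the site upstream of Ankrd37. These values run high, because the regions behind them were all called in normoxia. The part of the lower normoxia depth in the missing peaks was not tested.

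**Figure D4:**
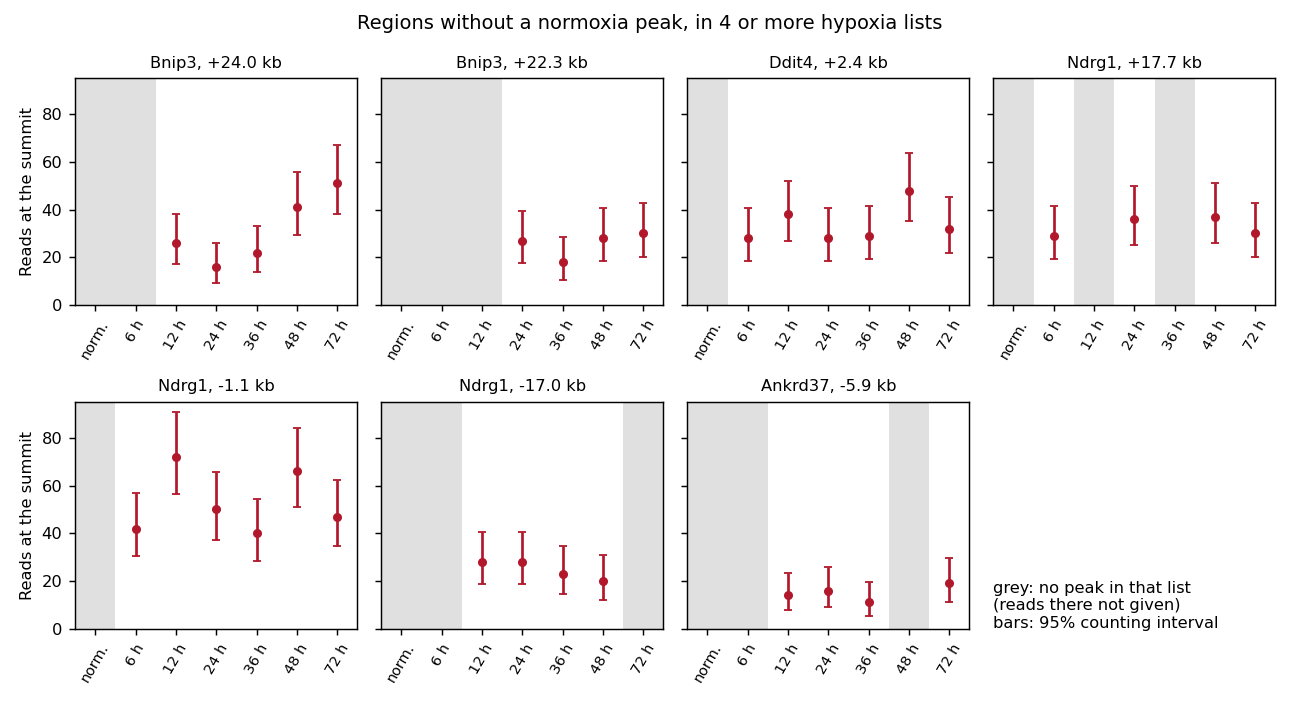
Reads at the summit (vertical axis) in each list for the 7 regions with no normoxia peak and a peak in 4 or more hypoxia lists, titled by gene and distance from its 5′ end; bars are 95% counting intervals, and grey columns are lists with no peak, whose reads are not given. The Bnip3 site at +24.0 kb reaches 51 reads at 72 h, and the Ddit4 and the nearer Ndrg1 sites have a value in all 6 hypoxia lists.

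Of the 33 normoxia regions 7 were missing from 3 or more hypoxia lists (21.2%, against 18.4%), with at most 9 normoxia reads. A peak in normoxia alone was found at 4 of them (7.14% of the 56 regions, against 2.75%), 15510 bp past the 3′ end of Ddit4, 19160 bp upstream of Higd1a, 2636 bp past Ankrd37 at the start of Ufsp2 and in Mxi1, 59384 bp from its 5′ end. Their normoxia summits had 7, 6, 5 and 6 reads and fold enrichments of 4.15, 3.63, 3.12 and 3.63. The other 3, a site 11671 bp upstream of Bnip3l (also at 12 h) and sites 28414 bp (also at 12 and 24 h) and 52608 bp (also at 6 and 12 h) into Mxi1, had 8 or 9 normoxia reads. Of the 7, only the Mxi1 site at 28414 bp had a peak at 24 h, and none had one later.

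Where a region had a peak in both lists, weaker calls outnumbered stronger ones by fold enrichment and not by reads. Of 159 pairs of a region and a time, 7 were 1.5-fold stronger than normoxia (4.40%, against 7.13% of all pairs) and 16 weaker (10.1%, against 6.36%). By summit reads 24 were stronger (15.1%, against 11.3%) and 12 weaker (7.55%, against 10.5%). Pairs of the same region share its normoxia value and are not independent: the 7 stronger pairs came from the first Mxi1 start (6) and the site upstream of Ankrd37 (1), and 11 of the 16 weaker pairs from 2 sites near Ndrg1 and Stc2. These 2 made up 8.33% of the 24 window regions in all 7 lists, where 1.25% of all such regions were weaker at 4 or more times.

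The site upstream of Stc2 (chromosome 11, 31281883 to 31282701, summit 12256 bp from the 5′ end) had the highest normoxia fold enrichment of all window regions, 16.0, above 99.3% of normoxia peaks. In hypoxia it was 5.26, 11.4, 10.3, 9, 10 and 7.25, all below normoxia, with corrected log2 ratios of -1.16, -0.47, -0.64, -0.69, -0.61 and -0.90. Its reads, 47 in normoxia and 25, 61, 47, 35, 56 and 36 in hypoxia, gave reads-based log2 ratios of -0.46 to -1.15, with counting intervals below 0 at 6 h (-1.91 to -0.42), 36 h (-1.44 to -0.11) and 72 h (-1.42 to -0.10). It was thus lower by both measures at all 6 times while the Stc2 promoter was not. Its sequence holds no HIF core, and carries the letters of C/EBP (TTGCNNAA), NFY and AP-1, in capitals here.
Stc2 upstream site, chr11:31282230-31282430, minus strand: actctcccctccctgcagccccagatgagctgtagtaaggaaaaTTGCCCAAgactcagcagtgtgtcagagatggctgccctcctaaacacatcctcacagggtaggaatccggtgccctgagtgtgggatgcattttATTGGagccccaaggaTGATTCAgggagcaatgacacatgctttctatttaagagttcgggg
A Ndrg1 intronic site (chromosome 15, 66785375 to 66786167, 15578 bp into the gene) was weaker at all 6 times by fold enrichment, from 7.55 in normoxia to 3.56, 3.32, 4.41, 4.05, 4.99 and 3.30, but at none by reads. Its summit held 41 reads in normoxia and 44 to 87 in hypoxia, and the reads-based log2 ratios were -0.28 to 0.44 with every interval spanning 0. The local background was 4.56 reads in normoxia and 11.6 to 18.3 in hypoxia, not corrected for depth. As a multiple of the genome-wide background of the same list it was 4.92 in normoxia. In hypoxia that multiple was 3.58 to 7.81, above the normoxia value except at 6 h. The part of the local background in the result was not tested.

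The strongest regions outside the gene's own promoters showed the same mixture. The site 10215 bp upstream of Bnip3 had 6.63 in normoxia and 5.65 to 7.74 in hypoxia, and its summit reads were 21 in normoxia, 69 at 48 h and 58 at 72 h, with reads-based log2 ratios of 0.92 (interval 0.19 to 1.70) and 1.08 (0.33 to 1.87). The site 7387 bp upstream of Ankrd37, in an Lrp2bp intron, had 7.79 in normoxia, 3.85 at 6 h, 13.1 at 24 h and 8.29 to 10.0 at the other times. It was 1.5-fold stronger at 24 h alone by fold enrichment, with a corrected log2 ratio of 0.70, and at 24, 36, 48 and 72 h by reads (0.72 to 1.21). The Bnip3l site 7896 bp past its 3′ end (8.15 in normoxia, 6.6 to 8.66 in hypoxia), the Ddit4 site 5910 bp past its 3′ end (6.49, then 4.13 to 7.61) and the Smndc1 promoter in the Mxi1 window (14, then 10.9 to 13.5) stayed within 1.5-fold by fold enrichment. So did the site 11039 bp upstream of Ndrg1, 11.8 in normoxia and 7.83 to 9.24 in hypoxia, except at 12 h with a corrected log2 ratio of -0.59. Near Higd1a the highest mean over lists was that of a peak at 12 h alone, in a Ccdc13 promoter, with 3.89 and 12 reads; a site 1920 bp past the 3′ end of Higd1a had a mean of 3.85, with 3.16 at 24 h and 4.54 and 15 reads at 72 h.

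An intronic Bnip3 site 2234 bp into the gene, with 1 HIF core, was weaker by fold enrichment at 12 and 72 h, with corrected log2 ratios of -0.60 and -0.68. It had 3.64 in normoxia and 2.12 to 2.50 in hypoxia, no peak at 24 h, and reads-based log2 ratios of -0.40 to -0.77, whose interval lay below 0 at 12 h alone (-1.50 to -0.04).

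In the pathways around these genes most promoters had a peak throughout. Of all 22238 protein-coding genes, 10485 had one throughout, 1403 had one in hypoxia but not in normoxia, 960 lacked one at a hypoxia time and 9390 had none. Of 17 mitophagy and autophagy genes 16 kept a promoter peak throughout and Becn1, a starter of autophagy, had one at 6, 12, 36, 48 and 72 h and none in normoxia. None of the 17 was 1.5-fold stronger or weaker at 4 or more times. Becn1 had no ratio, and Sqstm1 had ratios at 12 and 48 h only at its measured promoter region, so neither could be. Of 16 mTOR control genes 13 had one throughout, Tsc2, a subunit of the complex through which DDIT4 acts, lacked one at 72 h, and Ddit4l, a relative of Ddit4, and Prkaa2 had none. Of 10 MYC and MAX genes 8 had one throughout, whereas Mycn and Mlx had none in normoxia. Of 9 BCL2 family genes 6 had one throughout, Bax and Bak1 lacked one at some hypoxia times, and Pmaip1 had one at 6, 36 and 72 h only. Of the 6 relatives found in the annotation Ndrg3, Ndrg4 and Higd2a had one throughout, Ndrg2 lacked one in normoxia alone, Stc1 was missing at 6 and 72 h, and Higd1b had none. The median corrected log2 ratio was -0.02, -0.05, -0.04, 0.09 and 0.01 for these lists in turn, -0.09 for the 8 genes and -0.03 for all genes with a promoter peak throughout. Of all those genes 1.28% were stronger and 0.677% weaker at 4 or more times, and of the genes with a peak throughout, none in the 5 lists and none of the 8, by the promoter with the highest normoxia value, was among them. Tsc2 was outside that count for want of a 72 h peak: its promoter had a fold enrichment of 3.12 in normoxia and 4.23, 5.69, 4.22, 5.90 and 6.82 from 6 to 48 h, with corrected log2 ratios of 0.60, 0.83, 0.48, 1.13 and 1.17, past 1.5-fold at 4 of the 5 times. A fold enrichment of 3.12 lay above only 1.68% of normoxia peaks, so these ratios start from a weak normoxia peak. The summit reads of Tsc2 are not given here. Tsc2 was singled out after its values were seen.

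The gene whose promoter pattern over the 6 times was nearest was Osbp for Bnip3, with a root mean square difference of 0.02 on the log2 scale, Dhx36 for Bnip3l (0.05), Dusp28 for Ddit4 (0.06), Ddx26b for Higd1a (0.04), Skil for Ndrg1 (0.06), Zmym4 for Mxi1 by its second start (0.18) and D16H22S680E for Stc2 (0.07). Each was the nearest of 10355 genes, over 6 ratios that share 1 normoxia list. Zmym4, picked for its likeness to the second Mxi1 start over these times, had corrected log2 ratios of -0.60 at 48 h and -1.02 at 72 h.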

How the data were processed

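Bulk ATAC-seq of 4T1 cells was analysed from 7 peak lists, 1 per group. Per the methods and the submitters' processing notes, trimmed read pairs were mapped to mm9 (Bowtie2 2.1.0), filtered on mapping quality and proper pairing, and stripped of mitochondrial reads and of duplicates (Picard 1.79). Replicates were then merged by the authors and narrow peaks were called with MACS2, whose version is not given in the sources used here. The deposited ratio, called fold enrichment, divides reads at the summit by the local background after 1 read is added to both. The deposited significance columns hold -log10 p and -log10 q as the authors' peak caller wrote them; the lowest -log10 q was 1.30 to 1.31, near a q of 0.05, looser than the methods give. A fold depends on the local background, which differed between lists.

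Overlapping peaks, by 1 base or more, were joined across the 7 lists into regions, and each list was represented in a region by its most significant summit (-log10 q). Genes came from GENCODE on NCBIM37, the assembly of mm9; all 21 chromosome names of the lists matched it and every peak lay inside. Regions within 1 kb of an annotated start counted as promoters. Ratios to normoxia were corrected by the median in 20 equal-size bins of mean log2 fold over all regions in both lists and called at 1.5-fold. Summit reads were recovered from fold and -log10 p, with a mismatch of at most 0.00025 in -log10 p; intervals are exact Poisson or conditional binomial at 95% and cover counting error only. Steps were tested on simulated data. Besides all 8 genes and their promoters, the text names for each gene the strongest other region, regions absent in normoxia and in at least 4 hypoxia lists, normoxia regions missing from at least 3, regions past 1.5-fold in 1 direction at 4 or more times and the gene most like each promoter; 1 marker and the gene most like Ankrd37 are not reported here. The other Mxi1 starts and sites, the Stc2 promoter ratios by reads and the intronic Bnip3 site were singled out after their values were seen. The members and lists were chosen with earlier results of these data known. Alternatives covered thresholds, windows, merging, scaling and measure. Scripts used Python 3.11.15 with scipy 1.17.1, pandas 2.3.3 and numpy 2.4.6; pysam 0.24.0 read the genome, and figures were drawn in matplotlib 3.10.9.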

Additional observations from a re-analysis of the deposited data

How the results depend on the processing

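No paired analysis was possible because each list pools both replicates of its group, and for the same reason no replicate could be left out. Of 107 values under an alternative, 85 stayed within 1.5 times a count or within the counting error of a ratio. Among the averaged promoter ratios only that of the first Mxi1 start was past 1.5-fold. It kept its sign under the alternatives of scaling and measure, the only ones applied to these ratios. With only the 20000 strongest peaks of each list the windows held 20 regions, 10 in all 7 lists, 6 absent in normoxia and 4 missing at a hypoxia time, with 0 stronger and 4 weaker pairs. Windows of 50 kb held 103 regions, 44 in all 7 lists, 38 absent in normoxia and 21 missing at a time, with 31 weaker pairs. Windows of 10 kb left 5 regions missing at a time and 10 weaker pairs. A -log10 q of 5 or more, or presence only where peaks cover 50% of a region, left 1 stronger pair each. Both settings removed the normoxia peak of the first Mxi1 start, so that region had no ratio under them. That peak had a -log10 q of 4.54 and spanned 53384826 to 53385092, in a merged region 614 bp wide. A call at 2-fold left 1 stronger and 3 weaker pairs. Summit reads in place of fold turned the balance from 7 stronger and 16 weaker pairs to 24 and 12, and -log10 q gave 32 stronger and 34 weaker. For single promoters, averaged over the 6 times, Ankrd37 had a log2 ratio of -0.44 by fold and 0.03 by reads, the second Mxi1 start -0.36 and 0.03, Bnip3 -0.04 and 0.24 (0.21 by -log10 q), and the first Mxi1 start 0.85 by fold and 1.88 by -log10 q. Bnip3l went from -0.02 to 0.01 with bins over promoters alone; no other promoter changed sign. The cause was not tested. Leaving out the 6 h or the 72 h list changed no count by over 1.5 times. With the whole region searched, 30 of the 56 regions held a HIF core (53.6%, against 41.7% of all). A region without a normoxia peak may have had reads below calling, since normoxia was the shallowest list.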
